A study of Mus musculus with 6 samples.

Results

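Genes for the core proteins of the spliceosome were examined in 6 subcutaneous xenografts, in athymic nude mice, of STS26T, a cell line from a human malignant peripheral nerve sheath tumour (MPNST). They were chosen by symbol, as all those beginning with SNRP, LSM and a number, SF3A or SF3B and a number, or PRPF and a number, with a mean of at least 1 FPKM (fragments per kilobase of transcript, scaled to the mapped fragments of the library). Of 23284 genes in the deposited table, 47 matched the symbols and 45 reached that mean. In 3 tumours the mice had received TRC105 with M1043, antibodies against the human and the mouse form of endoglin (ENG), a co-receptor of the TGF-beta family, and these are called the anti-ENG tumours. The other 3 came from mice given the corresponding IgG control. Both arms were dosed at 10 mg/kg into the peritoneum 2 times a week for 3 weeks, starting once tumours could be felt. The labels name no transgene or deletion in either arm, every tumour came from 1 cell line, and nude mice lack T cells made in a thymus.

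The spliceosome removes introns from pre-mRNA and is built from small nuclear ribonucleoproteins (snRNPs), each a small nuclear RNA with its proteins. Sm proteins form a ring on the U1, U2, U4 and U5 RNAs. Their relatives, the LSM proteins, form one ring on U6 RNA in the nucleus and another in the cytoplasm that takes part in mRNA decay. The SF3A and SF3B complexes belong to the U2 snRNP and hold it at the branch site of the intron. The PRPF genes, named after yeast pre-mRNA processing factors, include proteins of the U4/U6.U5 tri-snRNP, the unit that joins before the catalytic steps. Splicing is needed in every dividing cell, and SF3B1 and PRPF8 are mutated in human disease.

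The ring genes are here those of the Sm ring and LSM1 to LSM7. They had higher estimates in the anti-ENG tumours in 14 of 14 cases, where 51.2% of all genes tested did. Their log2 fold changes had a median of 0.30, or 1.23-fold. The 31 other genes were divided, 17 higher and 14 lower, with a median of 0.0051. LSM10 (0.31) and LSM11 (-0.054), of the ring of another snRNP, U7, were counted with the 31. The genes were grouped with earlier results of these data known. No gene passed the threshold of an adjusted p under 0.05 (limma, 0 of 45), nor did any of the 12586 genes tested (0% called). At an unadjusted p under 0.05, 8 of the 45 were higher and 0 lower, against 5.56% of all genes tested that were higher and 3.61% that were lower. The 8 became 0 with each tumour rescaled to the same FPKM sum (1.33% of all genes), with quantile normalization (4.23%) and with cyclic loess normalization (3.6%). Leaving out single tumours, with fewer tumours in the fit, gave 1 without IgG control 1 (2.98% of all genes), 4 without IgG control 2 (3.05%), 3 without IgG control 3 (3.35%) and 3 without anti-ENG 1 (3.24%). The count did not fall in this way without anti-ENG 2 (7.53%) or anti-ENG 3 (6.66%), where it reached up to 11. The 3 anti-ENG tumours lay above the 3 IgG tumours for 18 of the 45, against 10.6% of all genes tested, and below them for 2, against 6.75%. The median of the 45 genes was 0.15, that of all genes tested was 0.0065, and that of the decile of highest expression, which holds 15 of the 45, was 0.16. In that decile 907 of 1259 genes had higher estimates, so higher values were frequent among abundant genes in general. At an unadjusted p under 0.05 (limma), 184 of the 1259 were higher and 14 lower. The anti-ENG tumours lay above the IgG tumours for 362 of them and below for 19. Fold changes are differences of mean log2(FPKM + 1), anti-ENG minus IgG control. With 3 tumours against 3, an exact two-sided permutation test cannot give a p under 0.1.

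Some features of the whole table bear on these values. The deposited FPKM summed to 410786 to 475146 per tumour, with the 3 highest sums in the anti-ENG tumours, the largest in anti-ENG 1. The most common ratio of low values of the same gene gave depths, relative to IgG control 1, of up to 1.46, the highest being that of anti-ENG 1. With each tumour rescaled to the same sum, the median over all genes tested was -0.10 (log2). Proliferation markers, a list of 8 genes such as MKI67 and CCNB1, were higher in 8 of 8, and their summed level was 350.1 to 406.8 FPKM in the IgG tumours and 483.9 to 611.8 in the anti-ENG tumours. Fibroblast markers were lower in 7 of 7, with sums of 754.1 to 1471 FPKM and 326.1 to 877.9 FPKM in the IgG and anti-ENG tumours. Sums of 6 myeloid markers were 63.7 to 121.6 and 75.4 to 102.0 FPKM, and those of 5 endothelial markers, with VWF and KDR under 0.1 FPKM in all 6 tumours, were 2.44 to 4.69 and 2.62 to 4.16 FPKM. Most of the myeloid sum was CD68, at 58.4 to 115.1 FPKM in the 6 tumours, while PTPRC, ITGAM and CD14 did not reach a mean of 1 FPKM. Sums of 6 Schwann and neural crest markers were 1.91 to 2.77 and 1.27 to 3.995 FPKM. The defining markers SOX10 and S100B were at 0.188 FPKM or less in all 6 tumours, so the nerve sheath origin in the label was not seen in these markers. The part of any of these in the values below was not tested. In bulk tumours, fewer cells of a type and less RNA per cell cannot be told apart, and reads of the mouse host count here only if they aligned to human genes.

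The Sm ring has 7 protein positions, and all 7 genes tested for it had higher estimates in the anti-ENG tumours, with a median log2 fold change of 0.33, or 1.26-fold. In 5 of the 7 the groups did not overlap. SNRPG, the gene for the small ring protein SmG, had 124.6, 120.8 and 113.5 FPKM in the IgG tumours, given here and below in the order of replicates 1, 2 and 3, and 173.1, 148.1 and 145.9 FPKM in the anti-ENG tumours. All 3 anti-ENG tumours lay above the IgG tumours, with means of 119.7 ± 5.62 and 155.7 ± 15.1 FPKM (SD, n = 3 each). Its log2 fold change was 0.37 (SE 0.12), and the limma adjusted p was 0.529. Many genes tie at this value, the smallest adjusted p in the fit, and SNRPG ranked 281 of 12586 by unadjusted p. SNRPE, for SmE, had 60.1, 67.0 and 73.2 FPKM under IgG and 111.9, 77.3 and 93.8 FPKM under anti-ENG. These groups also did not overlap, and 0.48 (SE 0.16, limma adjusted p = 0.529) was the largest log2 fold change among the 45 genes. SmE, SmF and SmG come together before the ring closes on the RNA. SNRPF, the third of them, had 52.1, 59.9 and 57.2 FPKM under IgG and 93.5, 66.3 and 57.5 FPKM under anti-ENG. Here anti-ENG 3 lay among the IgG tumours, and the log2 fold change was 0.33 (SE 0.18, limma adjusted p = 0.556).

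SNRPB codes for SmB and SmB′, spliced forms of one gene. Its values were 241.7, 220.2 and 240.8 FPKM under IgG and 362.5, 268.7 and 286.1 FPKM under anti-ENG, groups that did not overlap (log2 fold change 0.37, SE 0.15, limma adjusted p = 0.529). SNRPD2, for SmD2, was the most abundant of the 45 genes, with 293.6, 321.4 and 321.6 FPKM under IgG and 425.0, 340.0 and 384.6 FPKM under anti-ENG. The groups lay apart, with a log2 fold change of 0.29 (SE 0.13). SNRPD1, which codes for the partner of SmD2, had a narrow range under IgG, 49.5, 48.3 and 50.6 FPKM, and 73.5, 57.3 and 52.5 FPKM under anti-ENG. Its groups lay apart as well (log2 fold change 0.29, SE 0.14). SNRPD3, for the partner of SmB, had 81.0, 94.0 and 85.6 FPKM under IgG and 114.0, 86.4 and 85.1 FPKM under anti-ENG. Only anti-ENG 1 lay above all IgG tumours, and the log2 fold change of 0.12 (SE 0.15) turned to -0.016 without anti-ENG 1, to -0.00079 with tumours rescaled to the same FPKM sum and to -0.019 with cyclic loess normalization.

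**Figure D1:**
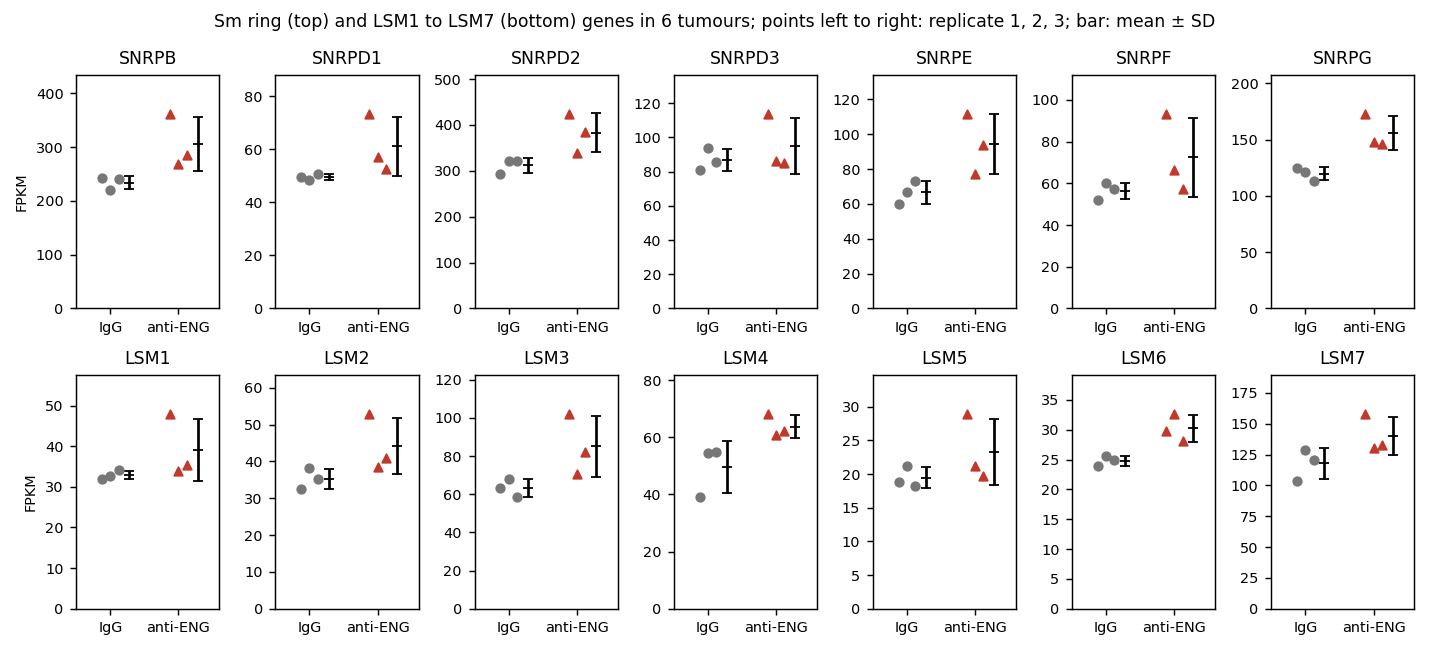
FPKM (vertical axes, each from 0) of the 7 Sm ring genes in the top row and LSM1 to LSM7 in the bottom row, with IgG tumours as grey circles, anti-ENG tumours as red triangles and the mean ± SD (n = 3) as a bar. Anti-ENG 1, the left triangle, is the highest tumour in 13 of the 14 panels, and in 10 of the 14 all 3 triangles lie above all circles.

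The ring holds 1 copy of each protein, but the mRNA levels per length were unequal. SNRPD2 was 5.78 to 7.32 times SNRPD1 in the 6 tumours, a range over which the groups overlapped. SNRPB was 4.56 to 5.45 times SNRPD1, and SNRPG was 1.55 to 2.07 times SNRPE. Ratios within a tumour do not depend on scaling by 1 factor per tumour. Quantile and cyclic loess normalization can change them, and the ratios were not computed under these. The pairs were chosen after the values were seen.

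SNRPN, for the SmB paralogue SmN of brain and heart, did not reach the minimum level. It was listed at 5.97e-06 FPKM or less in every tumour. SNURF, whose coding sequence lies on the same transcript upstream of that of SNRPN, was listed at 11.9, 14.6 and 8.05 FPKM under IgG and at 43.1, 12.4 and 16.8 FPKM under anti-ENG. Reads of this pair may not be separable, so the value near 0 does not show that the shared transcript is absent. The pseudogene SNRPD2P2, the other symbol left out, was listed at 0. Several small Sm and LSM genes have processed pseudogenes in the human genome, and the sources used here do not give how reads shared with them were assigned, so their levels are uncertain to that extent.

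Of the LSM rings, LSM1 to LSM7 were tested, and LSM8, the subunit that marks the nuclear ring, was not analysed here. All 7 had higher estimates under anti-ENG, with a median log2 fold change of 0.27, and the groups lay apart in 5. LSM3 had 63.1, 67.8 and 58.6 FPKM under IgG and 102.1, 70.8 and 82.2 FPKM under anti-ENG (log2 fold change 0.41, SE 0.15). LSM4 had 39.1, 54.6 and 54.8 FPKM under IgG and 68.2, 60.8 and 62.0 FPKM under anti-ENG (log2 fold change 0.37, SE 0.15). The low value of IgG control 1 widened the IgG group, yet all 3 anti-ENG tumours lay above it. LSM6 differed from the other ring genes in that its highest tumour was anti-ENG 2. It had 23.9, 25.5 and 24.9 FPKM under IgG and 29.9, 32.7 and 28.2 FPKM under anti-ENG (log2 fold change 0.27, SE 0.10). Each of these 3 genes had a limma adjusted p of 0.529.

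LSM1, the subunit that marks the cytoplasmic ring, had the smallest estimate of the 7. Its values were 32.0, 32.7 and 34.1 FPKM under IgG and 48.0, 34.0 and 35.4 FPKM under anti-ENG, with anti-ENG 2 inside the IgG range (log2 fold change 0.22, SE 0.15, limma adjusted p = 0.595). LSM2 and LSM7 had log2 fold changes of 0.31 and 0.25 with groups apart, and LSM5 had 0.23 with overlap. Factors that work with the cytoplasmic ring in removing the mRNA cap and degrading the mRNA were examined beside it. Of 8 such genes, 2 were higher and 6 lower, with a median of -0.12, and 0 had groups apart. The median was -0.019 without IgG control 1. XRN1, the exonuclease that follows decapping, had means of 11.1 ± 1.95 and 9.33 ± 0.965 FPKM (SD, n = 3 each), and EDC4, a decapping scaffold, 16.0 ± 0.962 and 14.1 ± 1.16 FPKM (SD, n = 3 each), in the IgG and anti-ENG tumours.

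Both ring medians leaned on anti-ENG 1. Without that tumour the median log2 fold change was 0.21 for the Sm ring, where 6 of 7 genes stayed above 0, and 0.17 for LSM1 to LSM7, where 7 of 7 did. Single estimates were over 1.5 times smaller without it in 9 of the 14 ring genes. SNRPF came to 0.13, SNRPD1 to 0.15, SNRPB to 0.24, LSM1 to 0.072, LSM2 to 0.17, LSM3 to 0.27, LSM5 to 0.074 and LSM7 to 0.16, beside SNRPD3 given above. LSM4 came to 0.21 without IgG control 1. Anti-ENG 2 and 3 alone lay above the 3 IgG tumours in 10 of the 14 ring genes, against 13.3% of all genes tested, and below them in 0, against 9.88%. The 10 are the genes in which all 3 anti-ENG tumours lay above. Leaving out a tumour cannot lower that count, so the 10 of 14 is no added result. With IgG control 1 and anti-ENG 1 both left out, the medians were 0.17 and 0.12.

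The 5 remaining LSM genes went both ways. LSM10 and LSM11 replace a pair of Sm proteins in the ring of the U7 snRNP, which processes the 3′ ends of histone mRNAs. LSM10 had 38.5, 40.2 and 40.3 FPKM under IgG and 56.7, 46.8 and 45.1 FPKM under anti-ENG, with groups apart (log2 fold change 0.31, SE 0.12, limma adjusted p = 0.529). LSM11 was the least abundant of the 45 genes, with 4.67, 3.73 and 4.12 FPKM under IgG and 5.13, 3.35 and 3.60 FPKM under anti-ENG. Its groups overlapped, with a log2 fold change of -0.054 (SE 0.17). The 2 partners were thus at unequal levels, LSM10 being 8.26 to 10.8 times LSM11 in the IgG tumours and 11.1 to 14.0 times in the anti-ENG tumours. Among 7 other genes of histone mRNA processing, 5 were higher and 2 lower. SLBP, which binds the histone stem-loop, had 21.4, 20.9 and 22.2 FPKM under IgG and 42.0, 25.2 and 23.0 FPKM under anti-ENG, so that most of its difference lay in anti-ENG 1. SYMPK, a scaffold of the cleavage complex, had means of 26.9 ± 2.89 and 22.3 ± 4.01 FPKM (SD, n = 3 each).

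LSM12 had between 23.9 and 24.6 FPKM in the IgG tumours and 29.2, 27.7 and 26.8 FPKM under anti-ENG. These groups lay apart with little spread in either (log2 fold change 0.20, SE 0.097, limma adjusted p = 0.538). LSM14A and LSM14B, proteins of cytoplasmic RNA granules, had log2 fold changes of -0.026 and -0.024, each with overlap.

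**Figure D2:**
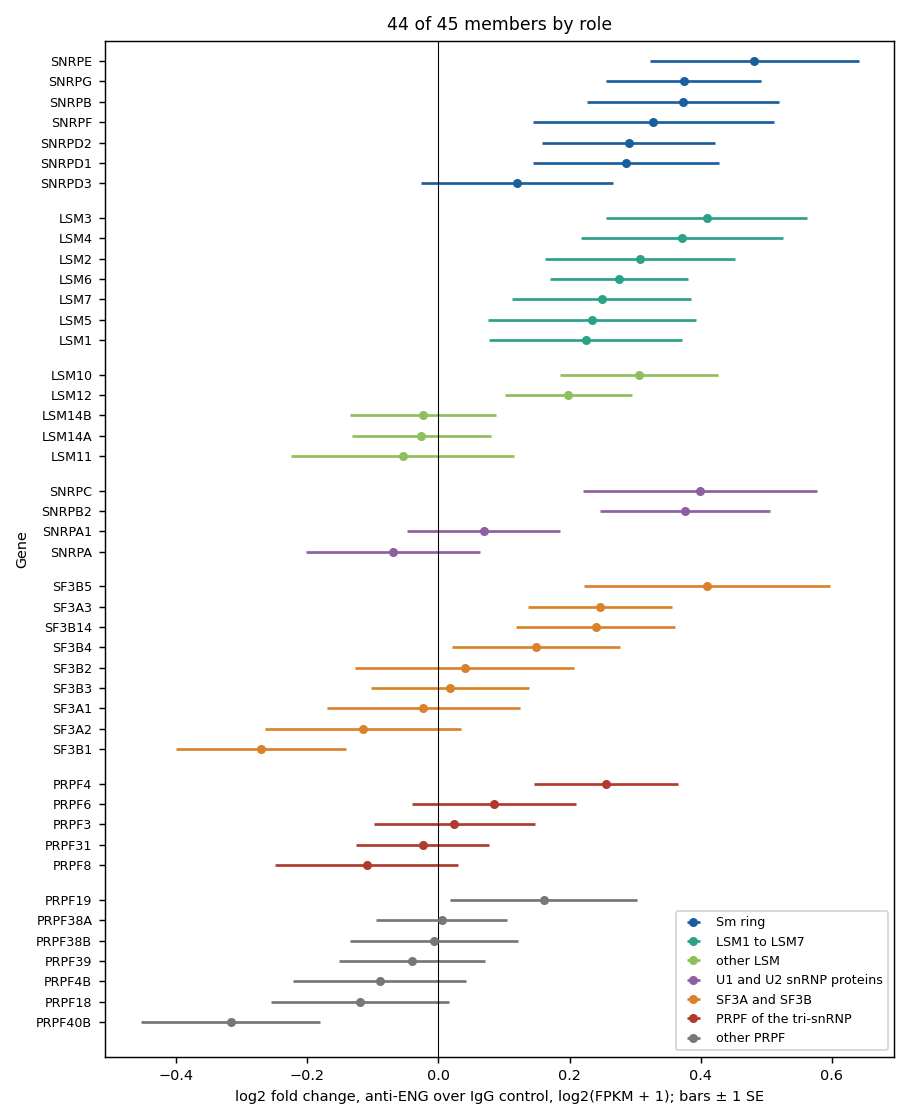
Log2 fold change (horizontal axis, anti-ENG over IgG control on the log2(FPKM + 1) scale) of 44 of the 45 genes, grouped and coloured by role, with bars of ± 1 SE. All 14 points of the Sm ring and of LSM1 to LSM7 lie right of 0, while the other 30 lie on both sides, from -0.32 for PRPF40B to 0.41 for SF3B5. SNRPD3, nearest to 0 among the ring genes, falls below 0 with the same FPKM sum or cyclic loess normalization.

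The 4 SNRP genes for proteins of the U1 and U2 snRNPs outside the ring split into a higher pair and a pair near 0. SNRPC, the U1 protein that touches the 5′ splice site duplex, had 46.1, 61.2 and 57.6 FPKM under IgG and 90.6, 61.9 and 67.2 FPKM under anti-ENG. The groups lay apart by a small gap (log2 fold change 0.40, SE 0.18, limma adjusted p = 0.529), and the value was 0.24 without anti-ENG 1. SNRPA, the U1 protein that binds a stem-loop of the RNA, had a log2 fold change of -0.069 with overlap. SNRNP70, for the U1 protein U1-70K, falls outside the symbol rule and was named after its values were seen. It had 133.2, 139.7 and 149.6 FPKM under IgG and 91.5, 117.3 and 124.0 FPKM under anti-ENG, with every anti-ENG tumour below the IgG range (log2 fold change -0.35, SE 0.14, limma adjusted p = 0.529). For U2, SNRPB2 had 54.6, 55.8 and 64.3 FPKM under IgG and 86.6, 71.3 and 70.1 FPKM under anti-ENG (log2 fold change 0.38, SE 0.13, limma adjusted p = 0.529). Its binding partner SNRPA1 had 45.5, 44.4 and 52.4 FPKM under IgG and 54.0, 47.5 and 47.8 FPKM under anti-ENG, with a log2 fold change of 0.069 (SE 0.12) that fell below 0 with the same FPKM sum, quantile or cyclic loess normalization. The ratio of SNRPB2 to SNRPA1, a pair chosen after the values were seen, was 1.20, 1.26 and 1.23 in the IgG tumours and 1.60, 1.50 and 1.47 in the anti-ENG tumours. Those ratios did not overlap, and none of the 3 anti-ENG values stood far from the others.

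Within SF3A and SF3B the subunits had differences of opposite sign. Of 9 genes 6 were higher and 3 lower, with a median of 0.040. SF3B1, the large scaffold that encloses the branch site and a frequent target of mutation in blood cancers, had 89.8, 110.5 and 93.7 FPKM under IgG and 86.8, 83.1 and 73.0 FPKM under anti-ENG. All 3 anti-ENG tumours lay below the IgG tumours (log2 fold change -0.27, SE 0.13, limma adjusted p = 0.533). SF3B5, a small subunit of the same complex, had 70.5, 73.6 and 67.0 FPKM under IgG and 125.9, 76.3 and 85.6 FPKM under anti-ENG. It lay above in all 3 (log2 fold change 0.41, SE 0.19, limma adjusted p = 0.529), with 0.20 left without anti-ENG 1. SF3B14, now named SF3B6, another small subunit of SF3B, was higher with groups apart at 0.24 (SE 0.12). The ratio of SF3B14 to SF3B1, chosen after the values were seen, was 1.02, 0.914 and 0.875 in the IgG tumours and 1.30, 1.33 and 1.39 in the anti-ENG tumours, again without overlap.

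SF3A3, a subunit of SF3A, had 45.5, 51.7 and 49.8 FPKM under IgG and 62.7, 55.6 and 56.5 FPKM under anti-ENG, with groups apart (log2 fold change 0.25, SE 0.11, limma adjusted p = 0.529). SF3B3, a large subunit of SF3B, had 21.8, 18.6 and 17.3 FPKM under IgG and 18.4, 20.7 and 19.2 FPKM under anti-ENG, a difference of 0.018 (SE 0.12) within the spread of the tumours, whose sign turned with the same FPKM sum, upper quartile rescaling and cyclic loess normalization. SF3B2, another subunit of SF3B, was among the most abundant of the 45, at 282.4 ± 22.3 and 293.3 ± 54.0 FPKM (SD, n = 3 each). SF3B4, SF3A1 and SF3A2 had log2 fold changes of 0.15, -0.023 and -0.12 with overlap.

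The PRPF genes were mostly near 0. In the tri-snRNP, 3 of 5 were higher and 2 lower, with a median of 0.024. PRPF4, a U4/U6 protein, had 24.9, 24.1 and 23.8 FPKM under IgG and 30.4, 31.1 and 26.2 FPKM under anti-ENG. It was the 1 gene of the 5 with groups apart (log2 fold change 0.26, SE 0.11, limma adjusted p = 0.529). PRPF3, its binding partner, had 32.5, 34.3 and 31.7 FPKM under IgG and 29.4, 33.4 and 37.9 FPKM under anti-ENG, with a log2 fold change of 0.024 (SE 0.12) that fell below 0 under all 4 other scalings. PRPF8, the large protein at the heart of the catalytic centre, had 34.4, 31.0 and 32.0 FPKM under IgG and 25.9, 29.0 and 36.0 FPKM under anti-ENG. The anti-ENG tumours spanned the IgG range on both sides (log2 fold change -0.11, SE 0.14), and the value was 0.034 when IgG control 1 and anti-ENG 1 were both left out. PRPF6, which bridges the parts of the tri-snRNP, had a log2 fold change of 0.085 (SE 0.12), below 0 with the same FPKM sum or cyclic loess normalization, and PRPF31 had -0.024 (SE 0.10).

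Of 8 PRPF genes outside the tri-snRNP, 3 were higher and 5 lower, with a median of -0.024. PRPF40B, a relative of a yeast U1 protein, had 5.56, 5.65 and 6.89 FPKM under IgG and 4.07, 5.08 and 4.77 FPKM under anti-ENG. It was the 1 gene of the 8 with groups apart, and it had the lowest estimate of the 45 (log2 fold change -0.32, SE 0.14, limma adjusted p = 0.529). PRPF19, the ubiquitin ligase of the complex named after it, had 54.4, 60.1 and 56.4 FPKM under IgG and 71.2, 52.4 and 69.3 FPKM under anti-ENG, with anti-ENG 2 below every IgG tumour (log2 fold change 0.16, SE 0.14). PRPF18, a factor of the later catalytic step, had -0.12 (SE 0.14). PRPF38A, PRPF38B, PRPF39 and the kinase gene PRPF4B had log2 fold changes between -0.090 and 0.0051, each with overlap. Leaving out single tumours turned the sign in 13 of the 30 genes outside the rings named here. It cannot turn the sign of a gene with groups apart, so the 0 of 20 such genes is no added result.

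The split between ring genes and the rest can be set out by tumour. Taken as the median over genes of the difference from each gene's mean over the 6 tumours, on the log2(FPKM + 1) scale, the 14 ring genes stood at -0.20, -0.099 and -0.12 in IgG control 1, 2 and 3 and at 0.42, 0.010 and 0.054 in anti-ENG 1, 2 and 3. The 31 other genes stood between -0.026 and 0.043 in every tumour. The gap between both medians was -0.18, -0.073 and -0.11 under IgG and 0.40, -0.0025 and 0.011 under anti-ENG. The groups did not overlap in this gap, but anti-ENG 1 stood far above the other 5 tumours, and anti-ENG 2 and 3 were near 0. The distance between the fold change medians of the ring genes and the others was 0.29, between 0.25 and 0.29 under the 4 other scalings, 0.18 with array weights, 0.15 without anti-ENG 1 and 0.11 with IgG control 1 also left out. Anti-ENG 1 was the highest tumour for 24 of the 45 genes and for 13 of the 14 ring genes, against 30.5% of all genes tested.

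**Figure D3:**
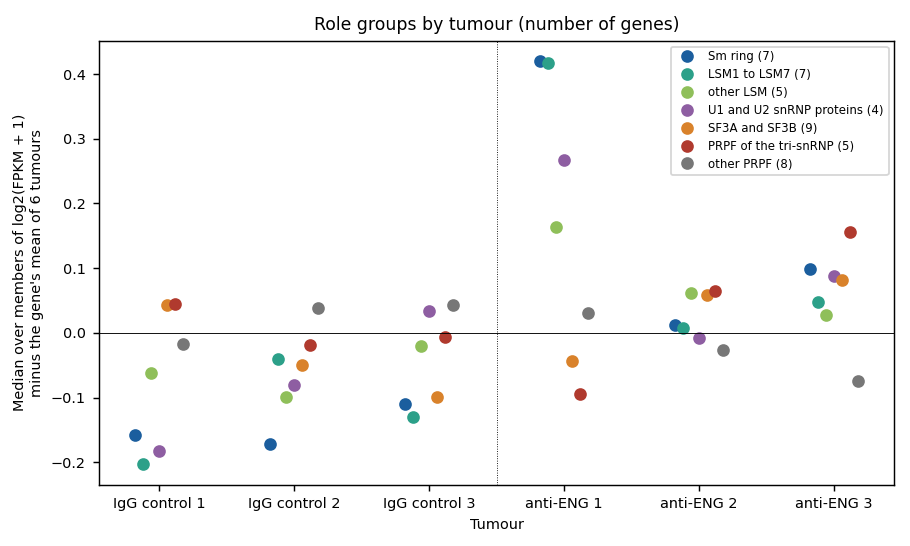
Median over the genes of each role of log2(FPKM + 1) minus the gene's own mean over 6 tumours (vertical axis), for the tumours on the horizontal axis, with the number of genes in the key. The Sm ring and LSM1 to LSM7 points lie at -0.041 or below in the 3 IgG tumours, at 0.42 in anti-ENG 1 and between 0.0073 and 0.098 in anti-ENG 2 and 3, while the tri-snRNP PRPF point is lowest in anti-ENG 1 at -0.094.

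Higher estimates went with short coding sequences, within the 45 genes and among all genes tested. Lengths were taken from the mouse gene of the same name, found for 45 of 45 genes and for 84.3% of all genes tested, since no human annotation was used. All 18 genes with a coding length of up to 600 nucleotides had higher estimates, against 13 of 27 longer ones. Among all genes tested, 960 of 1284 with short coding sequences and 4567 of 9332 with longer ones were higher. Across the 45 genes, Spearman's rho between fold change and length was -0.74, and it was -0.50 in the 31 genes outside the rings. Across all genes tested it was -0.30. Genes share libraries and are not independent replicates, so these are descriptions. Median fold changes of all genes fell from 0.24 at up to 300 nucleotides to -0.10 at over 3000. Ring genes lay above the median of their own length class in 12 of 14 cases, and the others in 18 of 31. Against the median of genes of similar expression (the same decile of all genes tested), 13 of 14 ring genes and 10 of 31 others lay above. In the 3 highest deciles of expression, where 13 ring genes fell, 9 lay above the median of their length class, and of 24 others there 14 did. The part of length in the difference was not tested.

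**Figure D4:**
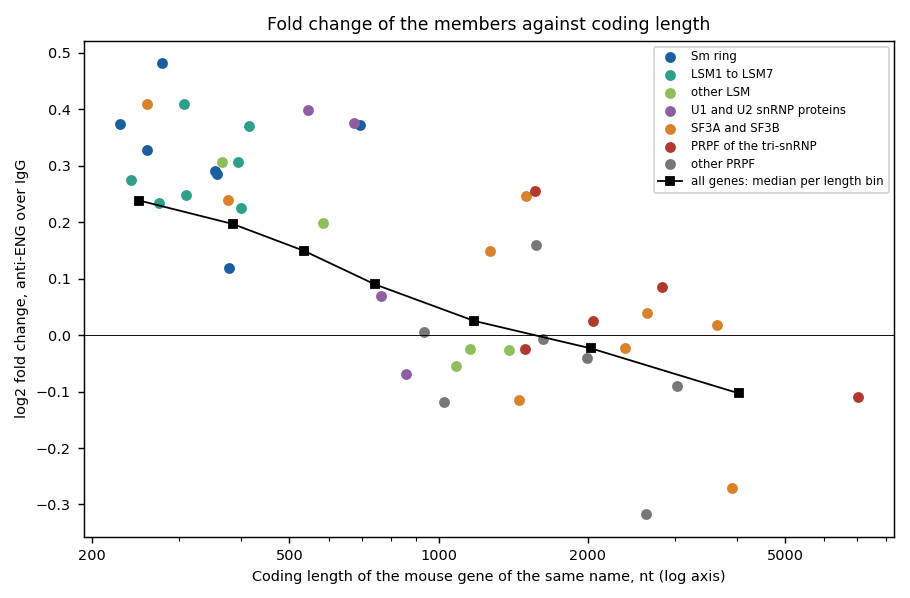
Log2 fold change (vertical axis, anti-ENG over IgG control) of 44 of the 45 genes against the coding length in nucleotides (horizontal log axis) of the mouse gene of the same name, coloured by role. The black squares give the median of all genes tested in each of 7 length classes, which runs from 0.24 to -0.10, and the 18 genes of up to 600 nucleotides all lie above 0.

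Other genes of the splicing pathway, 112 tested on lists chosen by function, had 75 higher and 37 lower estimates and a median of 0.091, beside 31 higher and 14 lower of the 45. The lists for decapping and histone mRNA given above are among them. None passed the adjusted threshold (limma, 0 of 112). At an unadjusted p under 0.05 (limma), 9 of the 112 were higher and 3 lower, against 5.56% and 3.61% of all genes tested. Whether these shares differ was not tested. A list for the assembly of Sm rings holds the SMN and PRMT5 complexes, which load Sm proteins onto RNA, and SNUPN, PHAX and TGS1, which act in the transport and capping of the RNA. Of these, 13 of 14 were higher, with a median of 0.21. The anti-ENG tumours lay above all IgG tumours for 6 of them, where this held for 10.6% of the 12586 genes tested. SMN1 and SMN2, near-identical genes for the SMN protein itself, did not reach the minimum level and were not tested. SMN1 was listed at 0.432 to 1.21 FPKM. Reads of such a pair may not be separable, so the low values do not show that SMN mRNA is scarce. WDR77, the PRMT5 partner that presents Sm proteins for methylation, had 22.4, 20.4 and 24.4 FPKM under IgG and 27.2, 25.6 and 30.3 FPKM under anti-ENG. STRAP, a subunit of the SMN complex, had 66.1, 73.8 and 66.9 FPKM under IgG and 93.5, 78.9 and 81.5 FPKM under anti-ENG. Both had groups apart and log2 fold changes of 0.30 (SE 0.12) and 0.29 (SE 0.12).

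snRNP proteins that the symbol rule passes over were divided, 10 higher and 9 lower of 19, with a median of 0.019. The 2 of smallest p were small proteins of the tri-snRNP. PPIH, a peptidyl-prolyl isomerase bound to PRPF4 and PRPF3, had 41.7, 45.5 and 37.3 FPKM under IgG and 66.0, 50.6 and 54.3 FPKM under anti-ENG (log2 fold change 0.44, SE 0.14). TXNL4A, of the U5 snRNP, had 33.5, 34.0 and 33.1 FPKM under IgG and 45.6, 41.9 and 39.2 FPKM under anti-ENG, with 0.32 (SE 0.10). In both genes the groups lay apart, and the limma adjusted p was 0.529.

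Of 17 genes for U2AF, SF1 and SR-type proteins, which recognise splice sites and exons, 11 were higher and 6 lower, with a median of 0.043. SRRM2, the very large nuclear speckle scaffold, had 48.2, 49.0 and 47.6 FPKM under IgG and 31.5, 34.9 and 40.6 FPKM under anti-ENG (log2 fold change -0.43, SE 0.12, limma adjusted p = 0.529), with every anti-ENG tumour below the IgG range. SRSF7 had 0.28 (SE 0.12) with groups apart. Helicases and the PRPF19 complex were higher in 17 of 24, with a median of 0.080. DHX38, the helicase that prepares the later catalytic step, had 27.3, 24.7 and 26.4 FPKM under IgG and 19.5, 20.9 and 21.9 FPKM under anti-ENG, groups that did not overlap (log2 fold change -0.32, SE 0.10). CWC27 had 0.37 (SE 0.12), also with groups apart.

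The exon junction complex, left on mRNA after splicing, was higher in 5 of 8, with a median of 0.21. Its core subunit MAGOH had 54.3, 52.4 and 58.9 FPKM under IgG and 67.1, 69.6 and 66.2 FPKM under anti-ENG (log2 fold change 0.29, SE 0.10), and the larger ACIN1 had -0.23 (SE 0.11). In both the groups lay apart. The hnRNP genes were higher in 12 of 15, with a median of 0.14. HNRNPF had 103.4, 103.2 and 102.4 FPKM under IgG and 166.2, 112.6 and 128.4 FPKM under anti-ENG (log2 fold change 0.38, SE 0.16), and HNRNPC had 0.30 (SE 0.12), each with groups apart.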

How the data were processed

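Polyadenylated RNA of 6 tumours was sequenced, per the labels' protocols, which name more than 1 library kit and sequencer and do not tie them to tumours. The authors deposited 1 table of FPKM values. Per the submitters' processing notes, alignment tools included TopHat2 2.0.10 with Bowtie 1.0.0, expression tools Cuffnorm and Cufflinks 2.2.1, and the build was human GRCh37. The sources used here do not give annotation, scaling, strand use or the handling of mouse reads. FPKM are not counts, so no count test was run. Total depth is unknown; the most common ratio of values of up to 0.05 FPKM gave relative depths of 1.0 to 1.46.

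Groups and replicate numbers came from the sample titles, and columns were matched by description. Tumours whose codes share a number (IgG control 2 and 3, anti-ENG 1 and 2) differ in code only by the letter L or R. Whether each such pair came from 1 mouse is not stated, so p-values measure only the spread between these samples. All genes whose mean reached 1 FPKM were log-transformed as log2(FPKM + 1) and fitted without covariates and with a trended prior variance (limma 3.58.1, R 4.3.3). P-values are two-sided, Benjamini-Hochberg adjusted over 12586 genes, with a threshold of 0.05. The step was tested on simulated data. Lists got counts and medians only.

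Members and lists were chosen with earlier results of these data known. The rule for names took all Sm ring genes and SNRPN, the 3 genes of smallest p and the 1 nearest 0 in each other role, and 2 of smallest p in each pathway list. Other members, SNRNP70, SNURF and the ratios were named after their values were seen, to account for the members. Of the 45 genes, 1 is counted in the lists but not reported singly here. Alternatives covered pseudocount, filter, scaling, variance model, weights, blocks and leaving out tumours.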

Additional observations from a re-analysis of the deposited data

How the results depend on the processing

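No gene of the 45 passed the adjusted threshold under any alternative run (0 in each, limma). The tumours share replicate numbers only by title: deviations from the group means correlated at -0.33, 0.19 and 0.037 within numbers 1, 2 and 3, so the numbers were not taken as pairs, and not every sample correlated best with its own number. With the replicate block, 2 genes were higher at an unadjusted p under 0.05 (3.65% of all genes tested), against 8 without it (5.56%). That count was 0 with the same FPKM sum, quantile and cyclic loess normalization (1.33%, 4.23% and 3.6%), 5 with upper quartile rescaling (3.94%) and with tumours of one code number averaged (4.04%), 1 to 11 when leaving out each tumour (2.98% to 7.53%), and 1 when IgG control 1 and anti-ENG 1 were both left out (3.21%), an alternative added after seeing the data. Genes lower at that p numbered 2 with the same FPKM sum (8.65% of all genes tested), 1 with quantile (3.43%) or cyclic loess normalization (3.96%), with no variance trend (3.79%), with array weights (3.61%) and with both tumours left out (2.64%), and 0 to 1 when leaving out each tumour (2.21% to 4.98%). The median of the 45 genes was 0.030, 0.065 and 0.050 with the same FPKM sum, quantile and cyclic loess normalization.

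With the same FPKM sum the medians were -0.081 for SF3A and SF3B, -0.14 for other LSM, -0.094 for the tri-snRNP PRPF, -0.14 for other PRPF, -0.096 for other snRNP proteins, -0.077 for SR-type proteins, -0.036 for helicases, 0.089 for the exon junction complex, 0.016 for hnRNP, 0.098 for Sm assembly, -0.23 for decapping and -0.063 for histone mRNA genes. Upper quartile rescaling gave -0.010 for other snRNP proteins and 0.11 for hnRNP. Quantile normalization gave -0.018 for SR-type proteins, 0.14 for the exon junction complex and 0.012 for hnRNP. Cyclic loess gave -0.0093 for other snRNP proteins, -0.037 for SR-type proteins, 0.029 for helicases, 0.13 for the exon junction complex and -0.035 for hnRNP. Code numbers averaged gave -0.0013 for other snRNP proteins and 0.095 for SR-type proteins, array weights 0.14 for SF3A and SF3B, and the minimum of 5 FPKM, which drops LSM11, 0.087 for other LSM. With both tumours left out the medians were 0.17 for the Sm ring, 0.051 for U1 and U2 proteins, 0.14 for SF3A and SF3B, -0.092 for other PRPF, 0.17 for the exon junction complex, 0.088 for hnRNP, 0.15 for Sm assembly and -0.0018 for decapping. Leaving out each tumour gave ranges of 0.031 to 0.14 for SR-type proteins, -0.028 to 0.029 for other snRNP proteins, 0.15 to 0.21 for the exon junction complex, -0.0021 to 0.19 for SF3A and SF3B, -0.0029 to 0.11 for the tri-snRNP PRPF, -0.0050 to 0.088 for histone mRNA genes, -0.038 to 0.048 for other LSM, 0.17 to 0.27 for Sm assembly and -0.17 to -0.019 for decapping.

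Of 579 values for 29 named members, 550 kept their sign and 29, in 8 genes, did not. Changing the filter or the variance model, or adding the replicate block, left each log2 fold change as it was, so those values could not turn. Leaving out tumours could not turn the sign of a gene with groups apart either. The 550 thus includes values fixed in advance and does not measure how stable the signs were. Leaving out each tumour gave -0.21 to 0.042 for LSM11, -0.082 to 0.048 for LSM14B, -0.050 to 0.11 for SF3B3, -0.016 to 0.19 for SNRPD3 and -0.065 to 0.11 for PRPF3. With the same FPKM sum, SNRPD3 was -0.00079, SNRPA1 -0.050, SF3B3 -0.097, PRPF6 -0.035 and PRPF3 -0.094. With upper quartile rescaling, SF3B3 was -0.011 and PRPF3 -0.0057. With quantile normalization, SNRPA1 was -0.017, LSM11 0.011 and PRPF3 -0.024. With cyclic loess, SNRPD3 was -0.019, SNRPA1 -0.026, SF3B3 -0.012, PRPF6 -0.017 and PRPF3 -0.046. With code numbers averaged, SF3B3 was -0.030. With both tumours left out, SNRPD3 was -0.065, SNRPA1 -0.019 and PRPF8 0.034. For every value here the cause was not tested. Depth in reads is unknown, so counting error could not be set apart from the spread between tumours.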
